A study of Mus musculus with 64 samples.

Results

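The genes described here mark the nerve cells, the glia and the pacemaker cells of the gut wall. They are 33 genes chosen by name, of 35534 genes in each of 2 deposited tables of whole colon RNA, and each of the 33 had 1 row in both tables. By role they comprise 13 genes of neuron structure and transmitter release, 5 genes of neuron identity and trophic receptors, 8 genes of transmitters and peptides, 4 glia genes and 3 pacemaker genes. Whole colon came from wild-type Swiss Webster mice, an outbred stock, aged 8 to 12 weeks and kept on 12 h of light and 12 h of dark, which were either germ-free (GF) or colonised but specific pathogen free (SPF). Mice received 2.5 mg of vancomycin, a glycopeptide antibiotic, in 100 µl of PBS, or PBS alone, by injection into the peritoneum 2 times a day for 3 days and once on day 4. For the treatment GF mice left their sterile isolators for Tecniplast cages. Sampling took place 5, 11, 17 or 23 h after lights on, written ZT5 to ZT23 (zeitgeber time), so that each kind of mouse had vancomycin and PBS groups at 4 times, 16 groups of 4 libraries in all. Nothing in the labels ties a library to an animal of its own, and the p-values measure library-to-library spread, which may be technical.

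The enteric nervous system lies in ganglia within the muscle coat and the submucosa, where excitatory neurons release acetylcholine and tachykinins and inhibitory neurons release nitric oxide and vasoactive intestinal peptide. Enteric glia surround these neurons, and the interstitial cells of Cajal, which depend on the Kit receptor, set the rhythm of the muscle through the chloride channel encoded by Ano1. Whole colon also holds epithelium, muscle, immune cells, blood vessels and often mesenteric fat. In such bulk tissue, fewer cells of a type and less RNA per cell cannot be told apart.

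Libraries held 10044032 to 13615804 estimated counts in SPF and 10513966 to 15736087 in GF mice. All 33 genes passed the filter on low counts in the SPF table and 32 passed in the GF table, where Npy did not. The libraries differed in makeup. A smooth muscle score (mean log2 CPM, counts scaled to a common library total, of a marker list) ran from 8.01 to 10.26 in SPF vancomycin and from 8.16 to 10.09 in SPF PBS libraries. A colon position score, posterior minus anterior Hox genes, ran from 1.40 to 3.96 in SPF vancomycin and from 0.96 to 3.38 in SPF PBS libraries, against -3.29 to 3.99 in GF vancomycin and -1.70 to 3.34 in GF PBS libraries. Of the SPF libraries, 3 had a muscle score over 10, all taken at ZT11: replicate 1 after vancomycin and replicates 3 and 4 after PBS. These same libraries had the 3 lowest position scores of the SPF mice, 0.96 to 1.40, against 2.30 to 3.96 in the other 29. Results for the 33 genes that rest on them are given with and without them. The Y-linked score differed widely among GF libraries, with means of 2.62 ± 2.90 after vancomycin and 5.15 ± 1.74 after PBS (SD, n = 16 each), against 5.86 ± 0.12 after vancomycin and 5.82 ± 0.12 after PBS in SPF mice. The median summed level of the Y-linked genes in GF libraries was 73.7 CPM after vancomycin and 227.4 CPM after PBS. The labels give no sex, so sex itself was not tested, and the Y-linked score served as a covariate.

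Ano1, the calcium-activated chloride channel of the pacemaker cells, which secretory epithelia also make, was lower after vancomycin in SPF colon. At ZT5 it had 212, 152, 210 and 142 CPM in vancomycin libraries and 262, 270, 321 and 237 CPM in PBS libraries. At ZT17 it had 167, 121, 246 and 208 CPM in vancomycin libraries and 311, 254, 348 and 275 CPM in PBS libraries. At both of these times all 4 vancomycin libraries lay below all 4 PBS libraries. At ZT11 the values were 131, 180, 242 and 113 CPM after vancomycin and 230, 163, 187 and 215 CPM after PBS. At ZT23 they were 173, 172, 176 and 264 CPM after vancomycin and 268, 243, 338 and 199 CPM after PBS. The groups overlapped at both of these times, with 2 vancomycin libraries above the lowest PBS library at ZT11 and 1 at ZT23. Over the 4 times Ano1 (ENSMUSG00000031075) averaged 182 ± 45.3 CPM after vancomycin and 257 ± 53.4 CPM after PBS (SD, n = 16 each). Its log2 fold change was -0.49 ± 0.11 (SE), with an adjusted p of 0.0339 by edgeR's quasi-likelihood test. Of the 33 genes 1 passed the threshold of 0.05 (3.03%), where 0.809% of all 16938 genes tested (137 genes) passed. Without adjustment, at p under 0.05, 10 of the 33 passed, where 16.2% of all genes did.

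The call for Ano1 lay close to the threshold. It was lost in 15 of 32 fits that each left out 1 library, with adjusted p up to 0.0646, and without the 3 muscle-rich libraries (log2 fold change -0.46, adjusted p = 0.11), where 0.148% of all genes passed. The 15 libraries were ZT5 replicates 2 and 4, ZT11 replicates 1 and 4, ZT17 replicates 1 and 2 and ZT23 replicates 1 and 2 after vancomycin, and ZT5 replicates 2 and 3, ZT11 replicates 1 and 4, ZT17 replicate 3 and ZT23 replicates 2 and 3 after PBS. The 8 epithelial markers Epcam, Cdh1, Krt8, Krt18, Krt19, Krt20, Vil1 and Cdx2 moved with Ano1: 7 of the 8 had a negative log2 fold change, 1 passed the test, and none was at 0. Their summed level ran from 7684 to 13230 CPM after vancomycin and from 7753 to 14920 CPM after PBS. With the epithelial score as a covariate, chosen after the data were seen, the log2 fold change of Ano1 was -0.29 with an adjusted p of 0.178, and 14 genes (0.0827% of those tested) passed, 0 of them among the 33.

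Gfap, an intermediate filament of glia, had the largest log2 fold change of the 33 genes and missed the threshold by a little. At ZT23 it had 18, 7.70, 17.8 and 8.69 CPM in SPF vancomycin libraries and 3.61, 3.55, 3.77 and 1.44 CPM in SPF PBS libraries. At ZT17 it had 12.5, 24.8, 14.8 and 19.4 CPM after vancomycin and 11.6, 5.00, 3.78 and 8.19 CPM after PBS. The treatments did not overlap at ZT17 and ZT23, with vancomycin higher at both. At ZT5 the values were 12.5, 11.9, 3.62 and 26.8 CPM after vancomycin and 6.02, 13.1, 5.71 and 5.38 CPM after PBS. At ZT11 they were 25.9, 3.15, 14.3 and 36.1 CPM after vancomycin and 21.1, 5.00, 24.9 and 11.2 CPM after PBS. At ZT5 and ZT11 the treatments overlapped. Over the 4 times Gfap (ENSMUSG00000020932) averaged 16.1 ± 8.96 CPM after vancomycin and 8.33 ± 6.61 CPM after PBS (SD, n = 16 each), a log2 fold change of 1.15 ± 0.29 (SE) with an edgeR adjusted p of 0.0529. DESeq2, run as an alternative, called both Gfap (adjusted p = 0.00602) and Ano1 (adjusted p = 0.003), among 493 genes (2.91% of those tested).

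**Figure D1:**
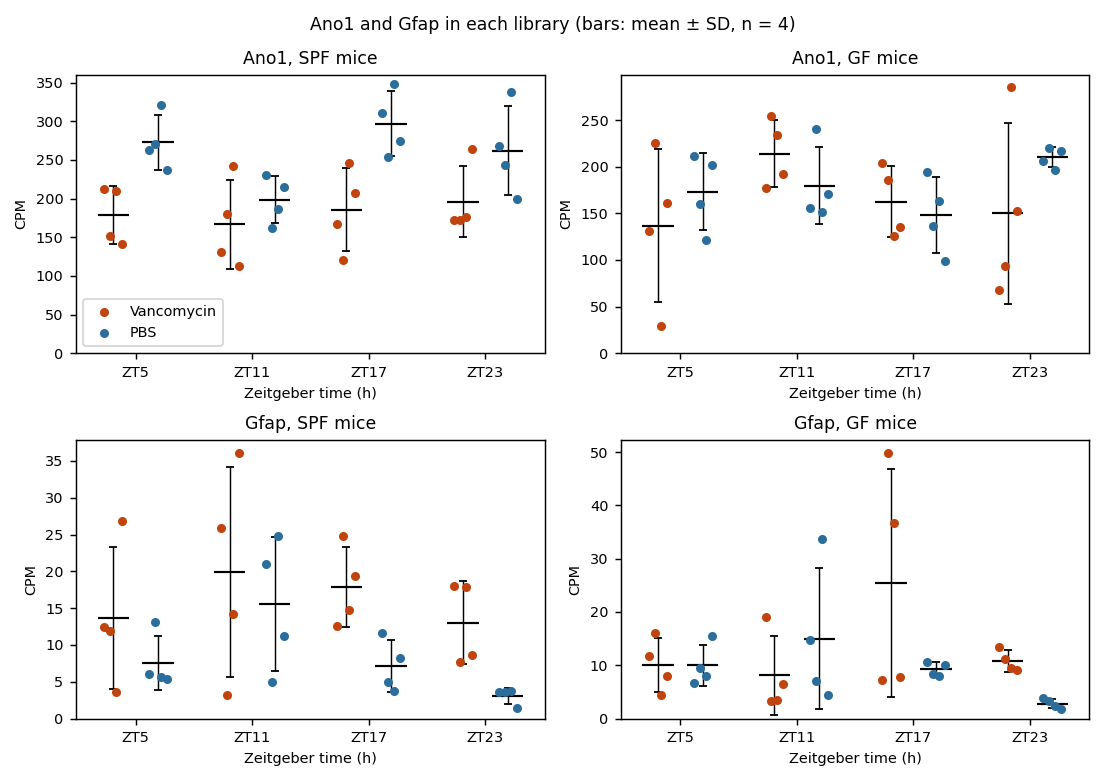
CPM of Ano1 (top) and Gfap (bottom) in every SPF (left) and GF (right) library by zeitgeber time, vancomycin in orange and PBS in blue; points are libraries, and bars show the mean ± SD of 4. In SPF mice all vancomycin points of Ano1 lie under all PBS points at ZT5 and ZT17, and all vancomycin points of Gfap lie above all PBS points at ZT17 and ZT23.

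Because the vancomycin comparison turned on Ano1 and Gfap, the 250 bases before their annotated starts are shown, from RefSeq's GRCm38.p6, 5′ to 3′ on the gene's strand. Ano1 lies on the minus strand at chr7:144738574-144738823, and Gfap on the minus strand at chr11:102897201-102897450. Capitals mark AGGTCA, the half-site of nuclear receptors such as the clock factor ROR, read on either strand as AGGTCA or TGACCT.
Ano1: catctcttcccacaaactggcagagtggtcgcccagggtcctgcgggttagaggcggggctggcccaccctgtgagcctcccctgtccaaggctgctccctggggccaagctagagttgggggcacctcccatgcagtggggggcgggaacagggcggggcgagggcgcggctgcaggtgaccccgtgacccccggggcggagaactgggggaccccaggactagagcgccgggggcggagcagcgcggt
Gfap: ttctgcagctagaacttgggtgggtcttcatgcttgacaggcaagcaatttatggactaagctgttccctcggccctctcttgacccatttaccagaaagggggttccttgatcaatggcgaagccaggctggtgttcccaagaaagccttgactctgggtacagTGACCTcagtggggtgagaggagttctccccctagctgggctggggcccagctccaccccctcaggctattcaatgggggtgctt
The half-site was found in 3 of the 23 genes with a window in that table (Elavl4, Gfap and Syt1), and 14% of all 32851 windows held it. The STAT motif TTCNNNGAA was in none of the 23 windows, against 7.02% of all windows, and the Ano1 window held neither motif. These are matches of letters and are not shown to be bound sites.

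The other 2 pacemaker genes did not follow Ano1. Kit, the receptor tyrosine kinase that Cajal cells need, averaged 70.4 ± 21.1 CPM after vancomycin and 71.8 ± 28.1 CPM after PBS in SPF mice (SD, n = 16 each), a log2 fold change of 0.02 ± 0.13. Etv1, a transcription factor of Cajal cells, averaged 21 ± 10.4 CPM after vancomycin and 23.6 ± 12.7 CPM after PBS, a log2 fold change of -0.17 ± 0.16. Neither passed the test (edgeR adjusted p = 0.975 and 0.636). Kit is also a mast cell gene. Of the 10 genes of the mast cell list (Cpa3, Mcpt1 and others), 3 passed the filter on low counts in SPF mice. The mean log2 CPM of these 3 was -1.34 ± 1.08 after vancomycin and -1.34 ± 0.84 after PBS.

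The remaining glia genes gave values on the other side of 0 from Gfap. S100b, a calcium-binding protein of glia, had 2.08, 2.76, 2.09 and 2.43 CPM at ZT17 after vancomycin and 3.16, 2.84, 3.16 and 3.36 CPM after PBS, with no overlap. Over the 4 times S100b averaged 2.70 ± 0.79 CPM after vancomycin and 3.52 ± 1.38 CPM after PBS (SD, n = 16 each), a log2 fold change of -0.38 ± 0.13 (edgeR adjusted p = 0.167). Sox10, the transcription factor of glia and their precursors, had 4.91, 6.11, 3.62 and 4.22 CPM at ZT5 after vancomycin and 9.80, 6.55, 6.79 and 7.47 CPM after PBS, again with no overlap. Over the 4 times its log2 fold change was -0.40 ± 0.16 (adjusted p = 0.23). Erbb3, the neuregulin receptor of glia, which intestinal epithelium also makes, averaged 273 ± 64.4 CPM after vancomycin and 274 ± 59.9 CPM after PBS (adjusted p = 0.997). Of 15 other glia genes tested (Entpd2, Foxd3, L1cam and others), 0 passed by edgeR, 12 had negative log2 fold changes and the median was -0.12.

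Among genes of neuron structure and release, all 13 had negative log2 fold changes after vancomycin in SPF mice and 0 passed the test. Snap25, a SNARE protein of vesicle fusion, had 13.2, 16.4, 13 and 11.2 CPM at ZT5 after vancomycin and 20.1, 23.2, 17.4 and 18.9 CPM after PBS. These groups did not overlap, and over the 4 times its log2 fold change was -0.26 ± 0.10 (edgeR adjusted p = 0.217). The vesicle proteins Syt1 and Syp had log2 fold changes of -0.18 ± 0.13 and -0.31 ± 0.16. The RNA-binding proteins Elavl3 and Elavl4, which mark neurons, had -0.51 ± 0.24 and -0.37 ± 0.17. The neurofilaments Nefl and Nefm had -0.22 ± 0.09 and -0.21 ± 0.10, and the filament protein Prph of peripheral neurons had -0.15 ± 0.12. Uchl1, a ubiquitin hydrolase abundant in neurons, had -0.18 ± 0.13, and the neuronal tubulin Tubb3 had -0.09 ± 0.13. The microtubule regulators Stmn2 and Stmn3 had -0.02 ± 0.17 and -0.18 ± 0.12, and the growth cone protein Gap43 had -0.06 ± 0.14. Adjusted p for these 12 genes lay between 0.248 (Nefl) and 0.972 (Stmn2).

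Of the 5 identity and trophic genes, 4 had negative log2 fold changes and 0 passed. Ret, the receptor for glial cell line-derived neurotrophic factor that enteric neurons need, had -0.30 ± 0.12 (adjusted p = 0.237 by edgeR). Its co-receptors Gfra1 and Gfra2 had -0.31 ± 0.19 and 0.08 ± 0.16. The transcription factors Phox2a and Hand2, which act in the making of autonomic neurons, had -0.25 ± 0.16 and -0.09 ± 0.11. Of the 8 transmitter genes 7 were negative and 0 passed. Nos1, the nitric oxide synthase of inhibitory neurons, had -0.33 ± 0.16 (adjusted p = 0.314), and Vip, the peptide released beside nitric oxide, had -0.09 ± 0.15. Tac1, the precursor of substance P, had -0.06 ± 0.12, and Gal, the precursor of galanin, had 0.11 ± 0.20. Calb2, a calcium-binding protein of many enteric neurons, had -0.30 ± 0.15, and Slc18a3, the vesicular transporter of acetylcholine, had -0.12 ± 0.16. Chat, the enzyme that makes acetylcholine, had -0.40 ± 0.46, and Npy, neuropeptide Y, had -0.02 ± 0.41 at 0.652 ± 0.457 CPM after vancomycin and 0.681 ± 0.663 CPM after PBS.

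Over all 33 genes, 29 had negative log2 fold changes in SPF mice and the median was -0.18, where 51.2% of all genes were negative with a median of -0.004. Across fits without 1 library, 26 to 30 of the 33 were negative. Smooth muscle markers lay in the same direction, with 11 of 12 tested negative, 0 called and a median of -0.12. With the smooth muscle score as a covariate, 21 of the 33 were negative and the median was -0.07. Without the 3 muscle-rich libraries, 25 were negative and the median was -0.10.

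**Figure D2:**
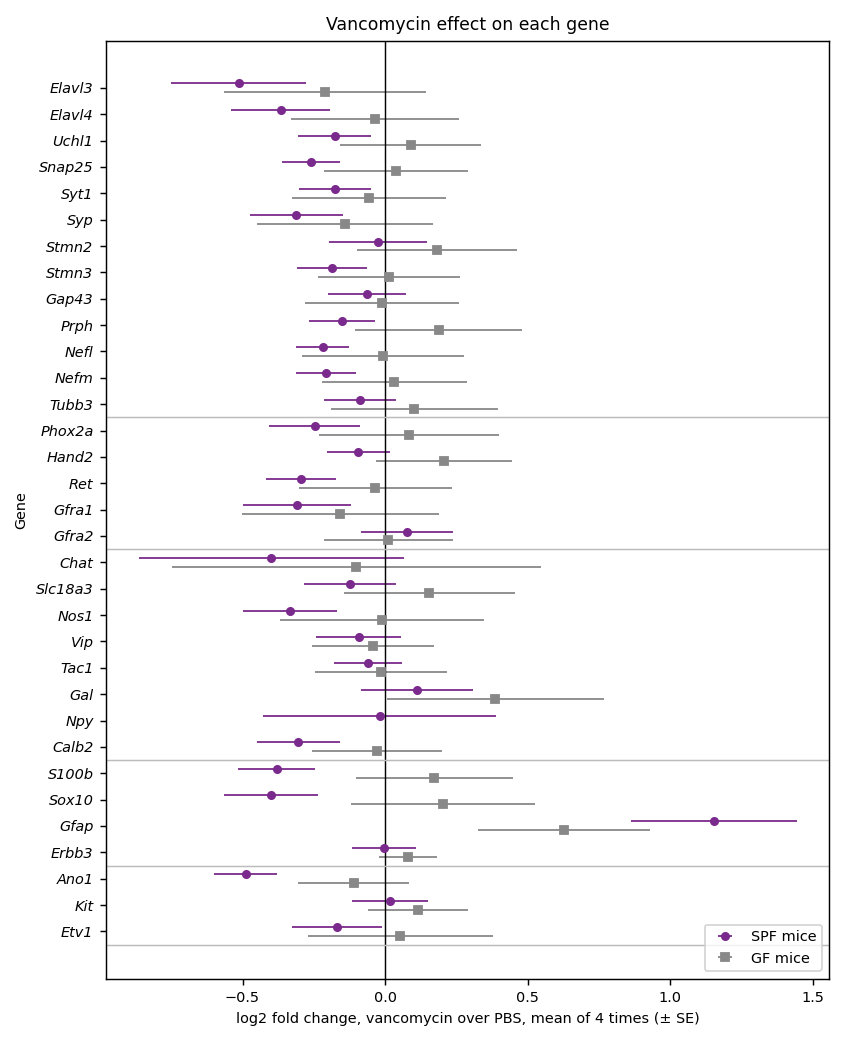
The log2 fold change of vancomycin over PBS, averaged over 4 times, for each gene in SPF (circles) and GF (squares) mice, with bars of ± 1 SE from edgeR. In SPF mice 29 of 33 points lie left of 0, Ano1 at -0.49 and Gfap at 1.15, and the GF bars are wider.

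Taken time by time, the SPF differences were widest at ZT5. By edgeR 0 of the 33 genes passed at any of the 4 times, where 0.0827% of all genes passed at ZT5, 0 at ZT11, 0.319% at ZT17 and 0 at ZT23. DESeq2 also called 0 of the 33 at each time, where it called 1.42%, 0.602%, 0.868% and 0.248% of all genes. Without adjustment, 14 of 33 genes had an edgeR p under 0.05 at ZT5 (42.4%, all lower after vancomycin), where 14.2% of all genes passed. The counts at ZT11, ZT17 and ZT23 were 2, 2 and 1, where 9.86%, 8.65% and 7.34% of all genes passed. The median log2 fold change of the 33 was -0.56 at ZT5, -0.22 at ZT11, 0.02 at ZT17 and -0.11 at ZT23. At ZT5 the 3 smallest p belonged to Nefl (-0.61 ± 0.19, adjusted p = 0.156), Gfra1 (-1.11 ± 0.38, adjusted p = 0.197) and Nefm (-0.60 ± 0.21, adjusted p = 0.203). Nefl had 11.8, 12.7, 10.6 and 9.37 CPM at ZT5 after vancomycin and 18.2, 15.9, 15.1 and 18.6 CPM after PBS, and the groups did not overlap. Calb2, Gap43, Nefm, Snap25, Sox10, Vip and Ano1 also had groups that did not overlap at ZT5. In all, 8 of 33 did not overlap at ZT5, each lower after vancomycin, where 8.74% of all tested genes did not overlap in either direction and 4.62% were lower without overlap. The counts at ZT11, ZT17 and ZT23 were 0, 3 and 2 of 33, where 3.03%, 5.89% and 5.12% of all genes did not overlap. All 12 tested smooth muscle markers were lower after vancomycin at ZT5, with a median of -0.57, 0 of them called, and a summed level of 9505 to 10560 CPM after vancomycin and 13730 to 16480 CPM after PBS. All 8 epithelial markers were lower there as well, with a median of -0.36. With the smooth muscle score as a covariate the median of the 33 at ZT5 was -0.03, with 18 negative, and with the position score it was -0.45, with 26 negative.

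At the other times single genes gave the smallest p. At ZT11 these were Chat, Npy and Ret, with log2 fold changes of -2.51 ± 0.92, 1.73 ± 0.79 and -0.47 ± 0.25 (adjusted p = 0.363, 0.474 and 0.548 by edgeR). Chat rested on 1 library: it had 2.50, 2.27, 1.93 and 2.02 CPM after vancomycin and 2.32, 0.794, 45.0 and 1.94 CPM after PBS. Without the PBS library at 45.0 CPM, replicate 3, its log2 fold change was 0.37. Slc18a3 lies inside the Chat gene on the same strand of chromosome 14. Whether the authors' counting split reads between the 2 genes was not tested. At ZT17 the smallest p were those of Ano1 (-0.68 ± 0.22, adjusted p = 0.28), Gfap (1.32 ± 0.58, adjusted p = 0.51) and Gal (0.73 ± 0.39, adjusted p = 0.638). At ZT23 they were those of Gfap (2.08 ± 0.61, adjusted p = 0.319), Gfra1 (-0.78 ± 0.39, adjusted p = 0.693) and Ano1 (-0.42 ± 0.22, adjusted p = 0.722). At ZT23 Gfra1 had 3.52, 5.16, 4.23 and 3.26 CPM after vancomycin and 5.81, 6.75, 7.63 and 7.54 CPM after PBS, with no overlap. In the test of whether the vancomycin effect differed between times, 0 of 33 genes passed by edgeR and 0 by DESeq2, where 0.360% of all genes passed by edgeR and 1.21% by DESeq2. At an unadjusted p under 0.05, where 9.79% of all genes passed, the count was 1. This was Gfra1 (unadjusted p = 0.0198, adjusted p = 0.411 by edgeR), followed by Nefl and Npy (adjusted p = 0.531 and 0.578).

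In GF colon no gene of the transcriptome passed for vancomycin over the 4 times by edgeR (0% of 16951), and 0 of the 32 tested genes did. At an unadjusted p under 0.05 the count was 1 of the 32, where 3.96% of all genes passed, and DESeq2 called 5 genes (0.0295%) with 0 of the 32 among them. That 1 gene was Gfap, which averaged 13.6 ± 12.6 CPM after vancomycin and 9.25 ± 7.63 CPM after PBS (SD, n = 16 each). Its log2 fold change was 0.63 ± 0.30 with an unadjusted p of 0.0477. At ZT23 Gfap had 13.5, 11.1, 9.44 and 9.07 CPM in GF vancomycin libraries and 3.80, 3.33, 2.27 and 1.87 CPM in GF PBS libraries. These groups did not overlap, in 1 of 32 genes where 6.61% of all genes did not, with a log2 fold change of 1.93 ± 0.63 (adjusted p = 0.309). At ZT17 the GF vancomycin values were 7.15, 49.8, 36.7 and 7.75 CPM, on both sides of the PBS values of 10.5, 8.39, 7.92 and 10.1 CPM. Colon position moved with the ZT23 result: 3 of 4 GF vancomycin libraries at ZT23 lay on the proximal side of the widest gap in the position score, and 0 of 4 GF PBS libraries did. At ZT23, 30 of 32 genes had positive log2 fold changes in GF mice with a median of 0.56, and Gal (1.69 ± 0.79) and Sox10 (1.31 ± 0.66) followed Gfap by p (adjusted p = 0.391 and 0.432). Smooth muscle markers were higher there too, 11 of 12 with positive log2 fold changes and a median of 0.84. Marker lists of other cell types had medians further from 0 in the same comparison. All 8 adipose markers had positive log2 fold changes, with a median of 3.60, and a summed level of 164.3 to 1418 CPM in vancomycin libraries and 16.18 to 132 CPM in PBS libraries. All 10 B cell and follicle markers had negative ones, with a median of -4.34, and a summed level of 4.807 to 55.49 CPM in vancomycin libraries and 272 to 1618 CPM in PBS libraries. By edgeR 0 of these markers passed, as 0 of all genes did, and the part of fat and B cells in the result was not tested. Mast cell markers (6 of 6) and Y-linked genes (4 of 4) had negative log2 fold changes, with medians of -1.23 and -1.52. With the smooth muscle score as a covariate the direction of the 32 turned at ZT23, with 24 negative and a median of -0.29, with the position score 8 were negative and the median was 0.17, and with the Y-linked score 4 were negative and the median was 0.45. The log2 fold change of Gfap at ZT23 was 1.35 with the muscle and 1.31 with the position covariate.

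Ano1 in GF mice averaged 166 ± 68.5 CPM after vancomycin and 178 ± 39.5 CPM after PBS, a log2 fold change of -0.11 ± 0.20. The lowest values were 29.1 CPM in GF vancomycin replicate 3 at ZT5 and 68.3 and 93 CPM in GF vancomycin replicates 1 and 2 at ZT23. All 3 of these libraries lay on the proximal side of the position score. The remaining GF values by p over the 4 times were Gal (0.39 ± 0.38) and Hand2 (0.21 ± 0.24). The median log2 fold change of the 32 genes was 0.02, with 18 positive and 14 negative, against 47.8% negative over all genes. Adding the smooth muscle score as a covariate, 23 were negative and the median was -0.09. At ZT5, ZT11 and ZT17 the smallest p in GF mice belonged to Chat (1.87 ± 1.33), Syp (-1.08 ± 0.62) and Gfap (1.46 ± 0.61), all with adjusted p of 0.994 or more by edgeR. They were followed by Gfra1 (-0.96 ± 0.69) and Stmn3 (-0.47 ± 0.50) at ZT5, by Gfap (-0.89 ± 0.60) and Gfra2 (-0.60 ± 0.45) at ZT11, and by Erbb3 (-0.23 ± 0.20) and Chat (-1.32 ± 1.29) at ZT17. At each of the 4 times 0 of the 32 passed in GF mice, and 0 of all genes, by edgeR. At an unadjusted p under 0.05 the counts were 0, 0, 1 and 2 at ZT5, ZT11, ZT17 and ZT23, where 3.58%, 4.91%, 4.47% and 12.1% of all genes passed. DESeq2 called 0 of the 32 at each time, where it called 0.0531%, 0.0472%, 0.0767% and 0.324% of all genes. In the GF test of treatment by time 0 of the 32 and 0 of all genes passed by edgeR. At an unadjusted p under 0.05 the count was 1 of the 32, where 8.29% of all genes passed, and DESeq2 called 0 of the 32 and 0.0531% of all genes. That gene was Gfap (edgeR, unadjusted p = 0.0109, adjusted p = 0.597), followed by Syp and Erbb3 (adjusted p = 0.717 and 0.772).

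A fit over all 64 libraries asked whether vancomycin acted differently in SPF and in GF mice. By edgeR 0 of 16604 genes passed, and so 0 of the 32, none of which had an unadjusted p under 0.05, where 9.94% of all genes did. DESeq2 called 16 genes (0.0964%), 0 of them among the 32. The smallest p belonged to S100b, Ano1 and Sox10, with log2 differences, SPF minus GF, of -0.56 ± 0.31, -0.38 ± 0.23 and -0.61 ± 0.37 (edgeR adjusted p = 0.555, 0.59 and 0.598). Of the 32 genes 30 were negative with a median of -0.26, where 52.6% of all genes were negative with a median of -0.01. Across fits without 1 library 23 to 31 were negative. Under the smooth muscle covariate the direction turned, with 12 of 32 negative and a median of 0.05. The Ano1 effect passed the threshold in SPF mice and not in GF mice, and the difference between them did not pass.

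**Figure D3:**
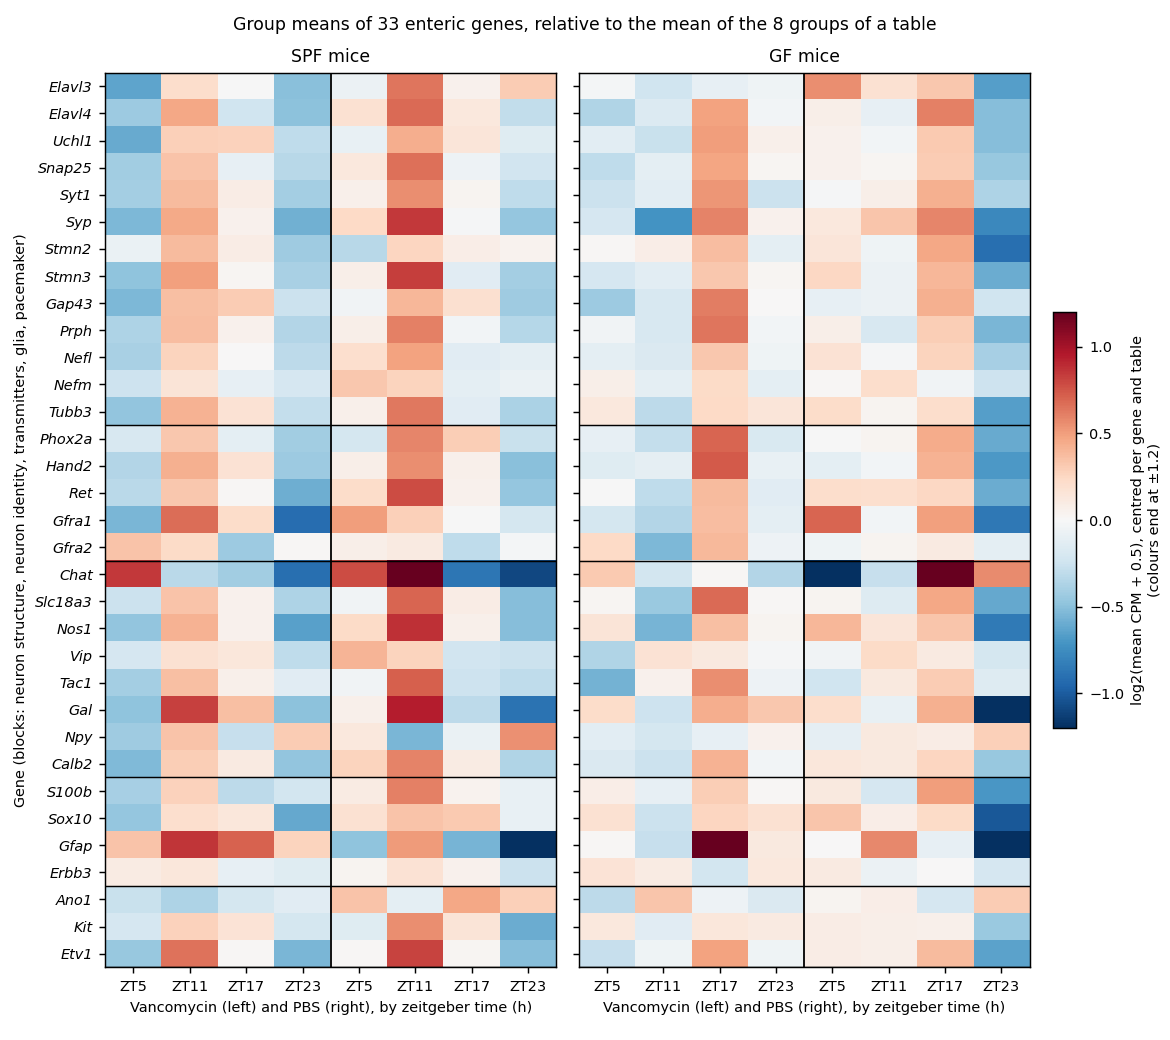
Colours give log2(group mean CPM + 0.5) of each of the 33 genes in the 8 SPF groups (left panel) and the 8 GF groups (right panel), relative to the gene's mean over the 8, with vancomycin left of PBS and times running from ZT5 to ZT23. In SPF mice the ZT11 columns are red for most neuron genes under both treatments, and Ano1 and Gfap stand apart from their neighbours.

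In the fit without covariates more of these genes passed for time of day than for vancomycin in SPF mice. With the smooth muscle or the position score as a covariate this order did not hold, as the counts given below show. After vancomycin 9 of 33 genes (27.3%) changed between the 4 times by edgeR's F test, where 8.20% of all genes did. After PBS 14 of 33 (42.4%) changed, where 8.90% of all genes did. After vancomycin 30 of 33 genes had their highest group mean at ZT11 and 18 their lowest at ZT23. After PBS 28 had their highest at ZT11 and 26 their lowest at ZT23. These counts were not taken over all genes and are a description only. Over all tested genes the median log2 difference of ZT11 over ZT23 was 0.007 after vancomycin and -0.01 after PBS. Of the 4 glia genes 0 passed after either treatment by edgeR, while 2 (Gfap and S100b) had an unadjusted p under 0.05 after PBS and 2 (S100b and Sox10) after vancomycin, and DESeq2 called Gfap after PBS. By DESeq2 15 of 33 passed after vancomycin, where 13.3% of all genes did, and 18 after PBS, where 15.6% did. At an unadjusted p under 0.05 by edgeR 21 of 33 passed after vancomycin and 21 after PBS, where 24.1% and 25.7% of all genes did.

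Stmn3 had the smallest p after PBS and passed after both treatments. At ZT11 it had 13.3, 7.17, 11.5 and 14.3 CPM in vancomycin libraries and 12.7, 9.45, 19.3 and 17.7 CPM in PBS libraries. At ZT23 it had 6.36, 7.32, 6.08 and 4.53 CPM in vancomycin libraries and 7.04, 7.27, 5.70 and 3.93 CPM in PBS libraries. In PBS libraries the 2 times did not overlap, and in vancomycin libraries they overlapped in 1 library each. The log2 difference of ZT11 over ZT23 was 0.93 ± 0.25 after vancomycin and 1.30 ± 0.25 after PBS, and adjusted p of the F test was 0.0185 after vancomycin and 0.00543 after PBS. Hand2 averaged 27.7, 47.6, 40.0 and 26 CPM at ZT5, ZT11, ZT17 and ZT23 after vancomycin and 37.1, 52.4, 36.9 and 24.8 CPM after PBS. Its F test gave adjusted p of 0.0224 after vancomycin and 0.0178 after PBS.

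Gal showed the widest span of the genes called after both treatments. Its means were 4.27, 11.3, 8.09 and 4.24 CPM at ZT5, ZT11, ZT17 and ZT23 after vancomycin, and 6.48, 12.3, 4.86 and 3.13 CPM after PBS. At ZT11 single libraries ran from 4.11 to 15 CPM after vancomycin and from 4.13 to 19.1 CPM after PBS, so that the lowest library of each group lay within the values of the other times. The log2 difference of ZT11 over ZT23 was 1.41 ± 0.40 after vancomycin and 1.98 ± 0.41 after PBS (adjusted p of the F test 0.0313 and 0.0111 in that order). Etv1 averaged 15.2, 33.3, 21.3 and 14.2 CPM after vancomycin and 21.2, 37.1, 21.4 and 14.6 CPM after PBS (adjusted p 0.027 after vancomycin and 0.0297 after PBS). Snap25 (0.0403 after vancomycin and 0.0177 after PBS) and Tubb3 (0.0483 after vancomycin and 0.0287 after PBS) were the other genes called after both treatments. The vancomycin call was lost in 18 of 32 fits without 1 library for Snap25 and in 24 for Tubb3. The PBS call was lost in 2 and 5 of 32 in that order.

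Gfra1, Uchl1 and Nefl passed after vancomycin only, with adjusted p of 0.0152, 0.0405 and 0.0468 by edgeR. Their calls were lost in 1, 10 and 24 of 32 fits without 1 library, in that order. Gfra1 averaged 5.37, 13.2, 9.52 and 4.04 CPM at ZT5, ZT11, ZT17 and ZT23 after vancomycin and 11.6, 9.94, 8.04 and 6.93 CPM after PBS. Ret, Tac1, Chat, Kit, Nos1, Slc18a3, Prph and Syp passed after PBS only, with adjusted p of 0.0108, 0.0127, 0.0274, 0.0286, 0.0341, 0.035, 0.0369 and 0.0384. Of these, Kit averaged 62.7, 102, 76.9 and 45.7 CPM at the 4 times after PBS. The call for Chat was lost without PBS replicate 3 at ZT11, the library at 45.0 CPM, and without PBS replicate 1 or 3 at ZT23. Whether time of day acted differently under the 2 treatments is the treatment by time test above, which no member passed. Ano1 had its highest SPF mean at ZT23 after vancomycin (196 CPM) and at ZT17 after PBS (297 CPM), and did not pass for time.

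**Figure D4:**
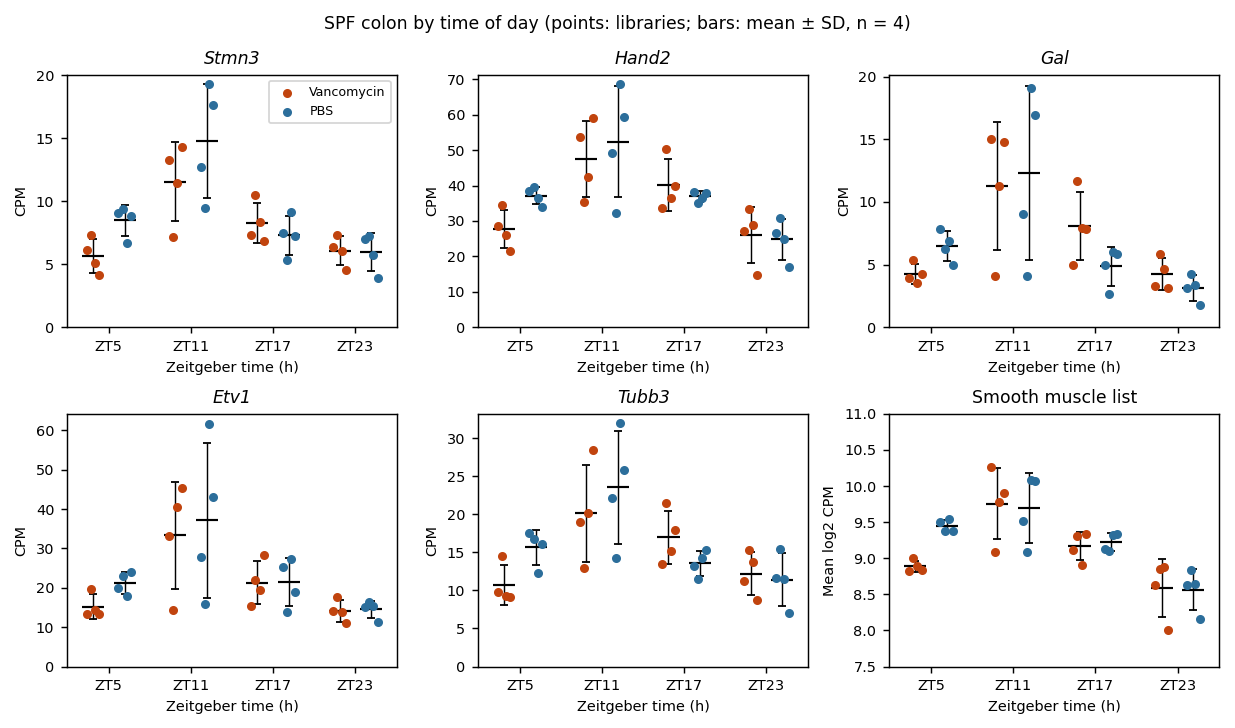
CPM of 5 genes called for time of day after both treatments, and the smooth muscle score (mean log2 CPM), in each SPF library by zeitgeber time, with vancomycin in orange left of PBS in blue and bars of mean ± SD of 4. The group means are highest at ZT11 in each panel, the muscle score included.

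Smooth muscle moved with these genes. Of 12 tested muscle markers (Myh11, Acta2, Des and others) 11 changed with time of day after vancomycin and 11 after PBS. Their summed level ran from 11940 to 28170 CPM at ZT11 and from 4825 to 9926 CPM at ZT23 after vancomycin, and from 11330 to 24770 CPM at ZT11 and from 5637 to 9283 CPM at ZT23 after PBS. With the smooth muscle score as a covariate 0 of 33 genes passed after vancomycin and 0 after PBS, where 1.82% and 1.80% of all genes did. With the position score as a covariate the counts were again 0 and 0, where 4.08% and 3.31% of all genes passed. Without the 3 muscle-rich libraries 2 genes passed after vancomycin and 0 after PBS, where 5.85% and 2.68% of all genes did. Over ZT5, ZT17 and ZT23 alone, 0 passed after either treatment, where 1.72% of all genes did after vancomycin and 2.23% after PBS. Leaving out single libraries gave 1 to 19 calls after PBS and 1 to 16 after vancomycin. After PBS the count was 1 without ZT11 replicate 3, 5 without ZT11 replicate 4, 7 without ZT23 replicate 1 or 3 and 8 without ZT23 replicate 4. After vancomycin it was 1 without ZT11 replicate 1 or 4, 4 without ZT11 replicate 3, ZT5 replicate 1 or 3 or ZT23 replicate 4, and 5 without ZT5 replicate 4, ZT17 replicate 3 or 4 or ZT23 replicate 1. It was 15 without ZT11 replicate 2 and 16 without ZT5 replicate 2. Stmn3 after PBS kept its call in all 32 of these fits.

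Of the 23 genes with a window, 2 (Tac1 and Chat) hold the E-box CACGTG in their 250 upstream bases. The clock factors CLOCK and BMAL1 bind the E-box. The E-box reads the same on both strands and 6.02% of all 32851 windows held it. In SPF mice 14 of the 23 genes passed for time of day after at least 1 treatment. Among these 14, 2 hold the E-box and 0 hold AGGTCA. The window of Stmn3, which had the smallest p after PBS, holds neither. The Tac1 window lies on the plus strand at chr6:7554811-7555060 of GRCm38.p6 from RefSeq. It is shown because Tac1 passed for time of day after PBS and holds the E-box, which is in capitals.
Tac1: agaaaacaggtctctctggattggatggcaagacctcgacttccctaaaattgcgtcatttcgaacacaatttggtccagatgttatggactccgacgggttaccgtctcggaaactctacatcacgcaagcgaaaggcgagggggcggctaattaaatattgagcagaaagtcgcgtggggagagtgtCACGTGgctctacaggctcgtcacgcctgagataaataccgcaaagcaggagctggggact
Tac1 averaged 15.8, 27.1, 22 and 19.1 CPM at ZT5, ZT11, ZT17 and ZT23 after vancomycin and 20.4, 34.8, 17.7 and 17 CPM after PBS. Its call after PBS was lost with the smooth muscle or the position covariate, without the muscle-rich libraries and without ZT11. It was also lost without PBS replicate 3 at ZT11 alone. The window is a description of the reference sequence and is not shown to be bound in these mice.

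In GF mice 0 of 32 genes passed for time of day after either treatment by edgeR, where 0.142% of all genes passed after each. The count at an unadjusted p under 0.05 was 1 of 32 after each, where 9.51% of all genes passed after vancomycin and 14.7% after PBS. That gene was Gfap both times (edgeR adjusted p = 0.492 after vancomycin and 0.227 after PBS). The next by p were Tac1 and Hand2 after vancomycin (0.648 and 0.684) and S100b and Stmn2 after PBS (0.429 and 0.435), all adjusted. DESeq2 called 0 of the 32 after either treatment, where it called 1.06% of all genes after vancomycin and 2.38% after PBS. Adding the smooth muscle score, 1 of the 32 (Hand2) passed after vancomycin. After vancomycin 27 of 33 genes had their highest GF group mean at ZT17, and after PBS 21 did, where in SPF mice ZT11 was highest. The GF counts, too, were not taken over all genes. Position differed between the GF times: 1 of 4 vancomycin libraries and 3 of 4 PBS libraries at ZT17 lay on the proximal side, against 3 of 4 and 0 of 4 at ZT23.

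Related genes outside the 33 were counted for the same tests in SPF mice. The counts are from the fit of all SPF libraries without covariates, and are not given without the muscle-rich libraries. By edgeR 8.20% of all genes changed with time of day after vancomycin and 8.90% after PBS, and the counts that follow are read against these shares. After PBS 5 of 19 other neuron genes changed with time of day, among them Scg3 and Scg2, granins of secretory granules, Syt4, a vesicle protein, and Eno2, the neuronal enolase (adjusted p = 0.00677, 0.0256, 0.0182 and 0.0249 by edgeR). After vancomycin 4 of 19 did (Eno2, Scg2, Scg3 and Sncg). The genes called in this list were all higher at ZT11 than at ZT23. Of 8 other pacemaker genes 3 changed after vancomycin (Thbs4, Cacna1d and Cacna1h) and 3 after PBS (Thbs4, Slc12a2 and Cacna1h). Of 15 receptors and effectors of enteric transmitters, 4 changed after vancomycin and 5 after PBS, with Vipr1, a receptor for vasoactive intestinal peptide, giving the smallest p (adjusted p = 0.00119 after vancomycin and 0.000855 after PBS). Vipr1 and Thbs4, a thrombospondin of the matrix, ran the other way from the neuron genes. Vipr1 was lower at ZT11 than at ZT23, by log2 differences of -0.79 ± 0.19 after vancomycin and -1.07 ± 0.19 after PBS (SE). Thbs4 had -1.16 ± 0.21 after vancomycin and -1.25 ± 0.21 after PBS (SE). Of 13 other transmitter genes 1 changed after vancomycin (Ddc) and 3 after PBS (Calcb, Sst and Penk). Of 15 trophic genes 1 changed after vancomycin (Nrtn) and 1 after PBS (Edn3), and of 15 other glia genes 2 (Mal and Fabp7) and 3 (L1cam, Foxd3 and Fabp7). L1cam after PBS had a log2 difference of ZT11 over ZT23 of -0.08 ± 0.17 (SE), smaller than its SE. The counts of 1 in a list are near the share of all genes. For vancomycin over the 4 times 0 genes of any of these 6 lists passed in SPF mice by edgeR, with medians from -0.20 (other neuron genes) to -0.02 (other pacemaker genes).

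Mean levels in SPF mice, in CPM ± SD over 16 libraries of each treatment, are given next gene by gene and are not compared between genes. Among the markers of neuron structure these were Uchl1 28.2 ± 9.49 after vancomycin and 31.1 ± 9.29 after PBS, Prph 29.1 ± 9.05 after vancomycin and 32.6 ± 11.2 after PBS and Stmn2 23.8 ± 8.16 after vancomycin and 23.9 ± 8.12 after PBS. The vesicle genes were Snap25 17 ± 5.09 after vancomycin and 20.5 ± 6.95 after PBS, Syp 16.1 ± 6.87 after vancomycin and 20.1 ± 9.56 after PBS and Syt1 14.8 ± 5.13 after vancomycin and 16.7 ± 5.25 after PBS. The filament and tubulin genes were Nefl 13.8 ± 3.56 after vancomycin and 16.1 ± 4.19 after PBS, Nefm 8.26 ± 2.27 after vancomycin and 9.58 ± 2.01 after PBS and Tubb3 15 ± 5.37 after vancomycin and 16 ± 6.10 after PBS. The growth and microtubule genes were Gap43 12.1 ± 4.02 after vancomycin and 12.5 ± 4.17 after PBS and Stmn3 7.89 ± 2.99 after vancomycin and 9.14 ± 4.18 after PBS. The neuronal RNA-binding genes were Elavl3 4.55 ± 1.90 after vancomycin and 6.41 ± 4.39 after PBS and Elavl4 8.39 ± 3.76 after vancomycin and 10.7 ± 4.78 after PBS. The identity genes were Hand2 35.3 ± 11.7 after vancomycin and 37.8 ± 12.6 after PBS and Phox2a 2.01 ± 0.700 after vancomycin and 2.43 ± 1.05 after PBS. The trophic receptors were Ret 14.7 ± 5.10 after vancomycin and 18.4 ± 7.82 after PBS, Gfra1 8.03 ± 5.39 after vancomycin and 9.13 ± 3.74 after PBS and Gfra2 9.58 ± 3.24 after vancomycin and 8.93 ± 3.01 after PBS. The peptide genes were Vip 43.6 ± 16.7 after vancomycin and 46.9 ± 13.7 after PBS and Tac1 21 ± 6.67 after vancomycin and 22.4 ± 9.17 after PBS. The other transmitter genes were Calb2 17.7 ± 6.40 after vancomycin and 21.8 ± 7.78 after PBS and Nos1 23.6 ± 10.3 after vancomycin and 30.2 ± 14.8 after PBS. The genes of acetylcholine were Slc18a3 3.51 ± 1.27 after vancomycin and 3.96 ± 1.88 after PBS and Chat 2.75 ± 3.63 after vancomycin and 5.05 ± 11.1 after PBS. Among glia genes Sox10 had 6.01 ± 2.45 after vancomycin and 7.73 ± 2.43 after PBS. In GF mice the mean levels in CPM of the same genes were, for structure and release, Uchl1 25.3 after vancomycin and 23.8 after PBS, Prph 31.2 after vancomycin and 27.3 after PBS, Stmn2 24.5 after vancomycin and 22.7 after PBS and Snap25 18.4 after vancomycin and 17.8 after PBS. Others of that group were Syp 17 after vancomycin and 18.8 after PBS, Syt1 14.8 after vancomycin and 15.3 after PBS, Nefl 15.2 after vancomycin and 15.4 after PBS, Nefm 7.68 after vancomycin and 7.52 after PBS and Tubb3 16 after vancomycin and 15.2 after PBS. The rest of it were Gap43 9.60 after vancomycin and 9.43 after PBS, Stmn3 8.78 after vancomycin and 8.92 after PBS, Elavl3 5.87 after vancomycin and 7.17 after PBS and Elavl4 10.5 after vancomycin and 10.9 after PBS. The identity and trophic genes in GF mice were Hand2 42.2 after vancomycin and 36.6 after PBS, Phox2a 2.33 after vancomycin and 2.18 after PBS, Ret 20.4 after vancomycin and 21.1 after PBS, Gfra1 8.80 after vancomycin and 10.5 after PBS and Gfra2 9.40 after vancomycin and 9.05 after PBS. The transmitter genes there were Vip 33.2 after vancomycin and 34.1 after PBS, Tac1 24.8 after vancomycin and 24.4 after PBS, Calb2 14.3 after vancomycin and 14.6 after PBS, Slc18a3 3.84 after vancomycin and 3.44 after PBS, Chat 4.04 after vancomycin and 5.43 after PBS and Npy 0.124 after vancomycin and 0.214 after PBS. The glia and pacemaker genes there were S100b 4.04 after vancomycin and 3.78 after PBS, Sox10 8.11 after vancomycin and 7.48 after PBS, Erbb3 376 after vancomycin and 355 after PBS, Kit 99.4 after vancomycin and 92.6 after PBS and Etv1 27.5 after vancomycin and 26.8 after PBS.

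Levels are compared between genes only per kilobase of exonic length, as CPM per kb. In SPF mice Erbb3 and Ano1 stood above the rest, at 45.4 and 29.1 CPM per kb after vancomycin and 45.6 and 41.2 CPM per kb after PBS. The next were Uchl1 (17.3 after vancomycin and 19.1 after PBS), Hand2 (15 and 16.1 in the same order), Prph (14.6 and 16.3) and Vip (12.8 and 13.8), all in CPM per kb. The other glia genes were low, Sox10 at 1.97 and 2.53, S100b at 1.82 and 2.37 and Gfap at 3.82 and 1.98 CPM per kb. Kit had 7.90 CPM per kb after vancomycin and 8.06 after PBS, and Etv1 1.58 and 1.77. The lowest were Phox2a (0.988 and 1.19), Elavl3 (0.661 and 0.931) and Chat (0.586 and 1.07). The length is that of all annotated exons of a gene, whichever of them these cells use.

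SPF and GF levels come from separate tables and are set side by side without a test. Gal averaged 6.97 ± 4.05 CPM in SPF and 15.3 ± 12.1 CPM in GF vancomycin libraries, and 6.70 ± 4.84 CPM in SPF and 12.7 ± 8.21 CPM in GF PBS libraries (SD, n = 16 each). Nos1 averaged 23.6 ± 10.3 CPM in SPF and 38.9 ± 30.1 CPM in GF vancomycin libraries, and 30.2 ± 14.8 CPM in SPF and 40.3 ± 27.4 CPM in GF PBS libraries. In both genes the range of SPF libraries lay within the range of GF libraries. Npy was at most 2.16 CPM in any SPF library and at most 0.745 CPM in any GF library. For the other 30 genes, too, single libraries of SPF and GF mice overlapped.

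Whether markers of 1 cell type moved together was asked over libraries, as correlations of log2 CPM after subtracting group means, with permutation tests and adjustment over 84 relations. In SPF mice the neuron genes Elavl4 and Snap25 varied together (n = 32, r = 0.84, rho = 0.85, permutation p = 1e-05, adjusted p = 0.00012, r without the 2 farthest libraries 0.83), where that p is the smallest the permutations can give. Elavl4 and Prph gave r = 0.80 and rho = 0.83 (permutation p = 2e-05, adjusted p = 0.00021), and the glia genes Sox10 and S100b gave r = 0.57 and rho = 0.66 (permutation p = 0.00311, adjusted p = 0.00871). The r without the 2 farthest libraries was 0.76 and 0.58. The neuron gene Elavl4 with the glia gene Sox10 gave r = 0.58 and rho = 0.61 (permutation p = 0.00149, adjusted p = 0.00501). Nos1 with Vip gave r = 0.51 and rho = 0.36 (permutation p = 0.0139, adjusted p = 0.0291). Chat with Slc18a3 (r = 0.35, permutation p = 0.0946, adjusted p = 0.169) and Gfap with Sox10 (r = 0.28, permutation p = 0.138, adjusted p = 0.228) missed the threshold. The pair of Gfap with Sox10 was added after the data were seen. Sox10 and Erbb3 did not vary together past the threshold (r = 0.05, rho = 0.07, permutation p = 0.827, adjusted p = 0.858), nor did Ano1 with Kit (r = -0.14, rho = -0.16, permutation p = 0.526, adjusted p = 0.645) or Ano1 with Etv1 (r = 0.00, rho = -0.00, permutation p = 0.994, adjusted p = 0.994). Kit with Etv1 also missed it (r = 0.33, rho = 0.23, permutation p = 0.179, adjusted p = 0.277), as did Kit with the mast cell gene Cpa3 (r = -0.34, rho = -0.32, permutation p = 0.127, adjusted p = 0.214).
Erbb3 varied with the epithelial gene Epcam instead (r = 0.63, rho = 0.69, permutation p = 0.00133, adjusted p = 0.00472, r without the 2 farthest 0.70), and so did Ano1 (r = 0.56, rho = 0.50, permutation p = 0.00684, adjusted p = 0.0155, r without the 2 farthest 0.50), while Kit missed the threshold (r = -0.19, rho = -0.16, permutation p = 0.339, adjusted p = 0.467, r without the 2 farthest -0.20). These 3 pairs were added after the data were seen. Elavl4 and Sox10 each varied with the muscle gene Myh11 (r = 0.63, rho = 0.62, permutation p = 0.0002, adjusted p = 0.00112, r without the 2 farthest 0.68 for Elavl4, and r = 0.76, rho = 0.75, permutation p = 0.00026, adjusted p = 0.00136, r without the 2 farthest 0.70 for Sox10), and Ano1 missed the threshold (r = -0.14, rho = -0.03, permutation p = 0.528, adjusted p = 0.645, r without the 2 farthest -0.12). In the 29 SPF libraries without the muscle-rich ones, Erbb3 with Epcam gave r = 0.69, Ano1 with Epcam r = 0.63, Elavl4 with Snap25 r = 0.80, Sox10 with Myh11 r = 0.67 and Ano1 with Kit r = -0.11. Of these 5, only Ano1 with Kit missed the threshold (permutation tests, n = 29, adjusted p = 0.00501, 0.0111, 0.00012, 0.00871 and 0.719 in that order).

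**Figure D5:**
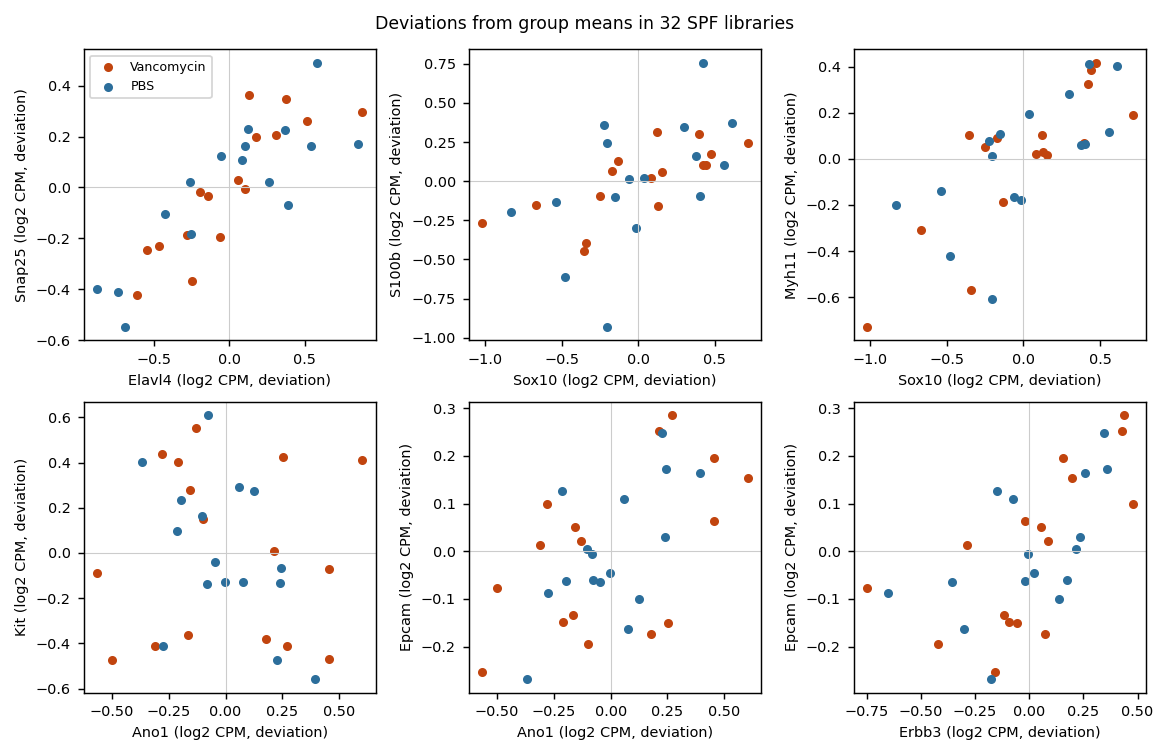
Deviations of log2 CPM from the group mean for 6 pairs of genes in 32 SPF libraries, with vancomycin in orange and PBS in blue, 1 point for each library. Elavl4 with Snap25 runs along a line (r = 0.84), Ano1 with Kit shows none (r = -0.14), and Erbb3 follows Epcam (r = 0.63).

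GF libraries fell on 2 sides of a gap in the position score, 15 on the proximal side and 17 on the distal side, and r is given within each, on log2 CPM centred on the mean of the side, with groups not subtracted. Unlike the SPF r, these r include differences between treatment and time groups, and libraries were permuted across groups. Ano1 with Kit gave r = 0.34 on the proximal and r = -0.31 on the distal side (permutation tests, adjusted p = 0.32 and 0.33). Ano1 with Etv1 gave r = 0.77 on the proximal side (n = 15, adjusted p = 0.00248, 0.54 without the 2 farthest) and r = -0.53 on the distal side (n = 17, adjusted p = 0.0535). Kit with Etv1 gave r = 0.75 on the proximal side (permutation test, adjusted p = 0.00472, 0.80 without the 2 farthest) and r = 0.66 on the distal side (adjusted p = 0.00906, 0.55 without the 2 farthest). Kit with Cpa3 gave r = 0.14 on the proximal (permutation test, adjusted p = 0.715) and r = -0.69 on the distal side (adjusted p = 0.00641, -0.61 without the 2 farthest). Sox10 with Erbb3 gave r = -0.80 on the proximal (adjusted p = 0.00084) and r = -0.12 on the distal side (adjusted p = 0.719) by permutation. Elavl4 with Snap25 gave r = 0.94 and 0.81, and Sox10 with S100b r = 0.83 and 0.58, on the proximal and distal side in that order, all 4 past the threshold. Elavl4 with Sox10 gave r = 0.86 and 0.73 in the same order (permutation tests, adjusted p = 0.000687 and 0.003). Elavl4 with Ano1 gave r = 0.82 on the proximal side (permutation test, adjusted p = 0.00305, 0.42 without the 2 farthest). On the distal side that pair gave r = -0.40 (adjusted p = 0.194). The pairs with Myh11 and Epcam are given for the same sides. Ano1 with Myh11 gave r = 0.69 on the proximal side (permutation test, n = 15, adjusted p = 0.0118, 0.55 without the 2 farthest) and r = -0.36 on the distal side (n = 17, adjusted p = 0.253). Ano1 with Epcam missed the threshold on both sides by permutation, with r = -0.20 (adjusted p = 0.643) and r = 0.03 (adjusted p = 0.933). Kit with Epcam gave r = -0.85 on the proximal side (permutation test, adjusted p = 0.00108, -0.80 without the 2 farthest) and r = 0.24 on the distal side (adjusted p = 0.483). Erbb3 with Epcam gave r = 0.65 and 0.54 (permutation tests, adjusted p = 0.0199 and 0.0494), with 0.37 and 0.25 without the 2 farthest, proximal side first. Differences between SPF and GF libraries in r were not tested. The 2 genes of a pair share their library and its scaling.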

How the data were processed

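Whole colon RNA was measured by poly(A) RNA-seq in 64 libraries, 4 in each of 16 groups. The authors deposited 1 table of Salmon estimated counts for SPF and 1 for GF libraries. Their names call the values normalised, but library totals differ, low values lie near whole multiples of 1, and no scaling by depth was visible. Trim Galore 0.6.2, cutadapt 3.5, Salmon and GRCm39 are named per the submitters' processing notes. For the annotation, the summing to genes and the use of strand, the sources used here give nothing. All columns belonged to the series (0 others).

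The estimated counts were rounded and tested with edgeR 4.0.16 in R 4.3.3 (TMM, quasi-likelihood, limma 3.58.1 underneath), with a mean for each group of treatment and time, over genes with at least 10 counts in at least 4 libraries. This left 16938 SPF and 16951 GF genes, and 16604 for the difference. Adjustment was Benjamini-Hochberg over all genes tested, at 0.05. Totals per library ran from 10044032 to 15736087, which bounds counting error only. The tables were tested separately, except for the difference of the effects. The fit was tested on simulated data. Correlations used 100000 permutations of libraries, within groups for SPF mice.

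All 33 genes are named, with full statistics for those past the threshold or the 3 with the smallest p, and at most 4 of each related list by smallest p. The genes and lists were chosen with earlier results of these data known. Alternatives were DESeq2 1.42.0, its size factors, no filter, the replicate block, covariates for smooth muscle, position and Y-linked genes, and leaving out each library. The muscle-rich libraries, ZT11, the epithelial covariate, 5 pairs and the GF sides were chosen after seeing the data. Exon lengths come from the reference annotation and upstream sequences from RefSeq.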

Additional observations from a re-analysis of the deposited data

Results flagged for a closer look

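In 32 of 528 groups of 4 libraries examined (33 genes in 16 groups), 1 library lay far from the other 3 of its group. Chance alone flags about 1 in 20 groups. The values below are in CPM, and each is given with the range of the other 3 libraries.

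Tubb3 was high in SPF vancomycin ZT5 replicate 2, at 14.6 against 9.19 to 9.74. Calb2 was low in SPF vancomycin ZT11 replicate 2, at 17.1 against 24.7 to 26.6. Stmn2 was low in SPF vancomycin ZT23 replicate 1, at 8.01 against 18.6 to 21.9. Ano1 was high in SPF vancomycin ZT23 replicate 4, at 264.2 against 172.1 to 175.9. S100b was low in that library, at 2.08 against 2.62 to 2.70. Gfap was high in SPF PBS ZT5 replicate 2, at 13.1 against 5.38 to 6.02. Nefm was low in SPF PBS ZT17 replicate 2, at 6.23 against 8.58 to 8.86. Snap25 was low in that library, at 13.1 against 18.6 to 19.4. Npy was high in SPF PBS ZT17 replicate 3, at 1.05 against 0.384 to 0.439. Gfap was low in SPF PBS ZT23 replicate 4, at 1.44 against 3.55 to 3.77. Nefl was low in that library, at 9.55 against 14.6 to 14.9.

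Elavl3 was high in GF vancomycin ZT11 replicate 1, at 13.8 against 2.30 to 2.62. Hand2 was high in that library, at 63.3 against 23.6 to 27.6. Nefm was high in that library, at 14.8 against 3.69 to 4.72. Sox10 was high in that library, at 12.8 against 3.76 to 4.30. Syt1 was high in that library, at 23.5 against 9.22 to 10.6. Chat was high in GF vancomycin ZT11 replicate 3, at 10.7 against 0.767 to 1.28. Vip was low in that library, at 24.7 against 41.0 to 43.1. Gap43 was low in GF vancomycin ZT23 replicate 1, at 3.05 against 9.95 to 12.2. Nefm was low in that library, at 2.88 against 7.76 to 9.15. Stmn2 was high in GF vancomycin ZT23 replicate 4, at 30.2 against 17.3 to 18.9. Hand2 was high in GF PBS ZT11 replicate 3, at 71.5 against 25.6 to 25.8. Nos1 was high in that library, at 91.7 against 23.7 to 28.5. Ret was high in that library, at 42.8 against 15.9 to 18.6. S100b was high in that library, at 7.09 against 1.68 to 2.18. Slc18a3 was high in that library, at 5.32 against 2.18 to 2.52. Npy was high in GF PBS ZT17 replicate 3, at 0.745 against 0 to 0.0807. Vip was high in that library, at 46.7 against 31.5 to 32.9. Nefl was low in GF PBS ZT17 replicate 4, at 13.4 against 19.3 to 20.1. Elavl3 was high in GF PBS ZT23 replicate 1, at 8.15 against 2.11 to 2.70. Prph was high in that library, at 34.0 against 13.5 to 15.1. Sox10 was high in that library, at 6.33 against 2.40 to 2.68.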

How the results depend on the processing

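Over the 4 times, 1 gene passed for vancomycin in SPF mice (Ano1). The count was 2 with the smooth muscle covariate, 2 with the position covariate and 2 by DESeq2 (Ano1 and Gfap each time). It was 0 without the muscle-rich libraries and 0 with the epithelial covariate, and 0 to 2 across fits without 1 library. All genes called numbered 137 in the reported fit, 493 by DESeq2, 80 without the filter, 55 with the Y-linked covariate, 25 without the muscle-rich libraries and 14 with the epithelial covariate.

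For time of day after vancomycin, 9 genes passed in SPF mice. The count was 5 without the filter, 4 with the replicate block, 0 with the muscle covariate, 0 with the position covariate, 1 with the Y-linked covariate, 15 by DESeq2, 2 without the muscle-rich libraries, 0 without ZT11, and 1 to 16 without single libraries. After PBS 14 passed, with 10 under the replicate block, 0 with the muscle covariate, 0 with the position covariate, 5 with the Y-linked covariate, 0 without the muscle-rich libraries, 0 without ZT11, and 1 to 19 without single libraries. In GF mice the count after vancomycin was 1 (Hand2) with the muscle covariate, against 0. The cause of these changes was not tested, apart from the fewer libraries or times that some settings use.

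The replicate block changed none of the other counts of members. Whether equal replicate numbers pair the libraries was not tested. In SPF mice same-numbered libraries correlated between -0.247 and 0.443, with a mean of 0.0239 against -0.00788 for unlike numbers. There 13 of 32 were closest to their own number. In GF mice same-numbered libraries correlated between -0.516 and 0.506, with a mean of -0.0317 against 0.0103 for unlike numbers. There 5 of 32 were closest to their own number.

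The SPF ZT11 log2 fold change of Chat ran from -2.92 to 0.37 across fits without 1 library, reversing without PBS replicate 3. Without the 2 farthest libraries, pairs past the threshold numbered 10 on the GF proximal side, against 17, and 5 on the distal side, against 10. Npy, at most 2.16 CPM in any SPF library, missed the filter on low counts in GF mice.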
